A study of Mus musculus with 6 samples.

Results

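The renal lineage transcription factors Pax2, Pax8, Lhx1, Gata3, Emx2, Pou3f3, Irx1, Irx2 and Irx3 were followed in newborn mouse kidney and ureter. The 9 genes were chosen by symbol among the 24532 genes of the deposited expression table, and all 9 passed the filter on low counts in the test of kidney against ureter and in that of KO against WT kidney. Libraries were made from mice at PN1 (postnatal day 1) by bulk RNA sequencing. There were 2 Ahnak KO kidney libraries, 2 WT kidney libraries, 1 Ahnak KO ureter library and 1 WT ureter library. Ahnak codes for a very large scaffold protein, and the Ahnak KO mice carried a disruption of exon 5 of the gene, while WT mice carried the intact gene. The methods give 2 to 4 kidneys or ureters per RNA preparation, without the number for each library, and no strain was given in the sources used here. The titles call the ureter libraries kidney samples and their tissue label reads Ureter. In the text below KO and WT are the labels of the libraries.

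The nephron and the collecting system grow from the intermediate mesoderm. Pax2 and Pax8, paired box factors, specify this tissue together, and Lhx1 and Gata3 act with them in the nephric duct, the tube that gives rise to the ureteric bud. The bud forms the collecting duct tree and the lining of the ureter, and Emx2 is needed in it for branching. Pou3f3 and the Iroquois factors Irx1, Irx2 and Irx3 mark the middle part of the young nephron that becomes the loop of Henle and the distal tubule. The ureter wall holds urothelium, smooth muscle and connective tissue but no nephrons. The comparison between tissues asked how each factor was divided between an organ with nephrons and one without them, and the comparison between genotypes asked whether loss of Ahnak went with a change in any of them.

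The 9 factors lie on 6 chromosomes. On GRCm38, in the GENCODE M21 annotation, Pax2 (gene number 18504) spans chr19:44756045-44837871 on the plus strand with 11 exons, and Pax8 (18510) spans chr2:24420560-24475599 on the minus strand with 12 exons. Lhx1 (16869) lies at chr11:84518284-84525535 on the minus strand with 5 exons, Gata3 (14462) at chr2:9857078-9890034 on the minus strand with 6 exons, and Emx2 (13797) at chr19:59458372-59465357 on the plus strand with 3 exons. Pou3f3 (18993) is a gene of 1 exon at chr1:42695768-42703176 on the plus strand. Irx1 (16371) at chr13:71957921-71963723 on the minus strand, with 4 exons, and Irx2 (16372) at chr13:72628820-72634198 on the plus strand, with 5 exons, are 665097 bases apart, and Irx3 (16373) lies at chr8:91798525-91802067 on the minus strand with 4 exons. Exon counts are those of the transcript with the longest coding sequence. The deposited table holds no coordinates.

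The sequence just upstream of the start was read for the members from the RefSeq promoter table of GRCm38.p6. It matched 8 of the 9 members, with 3 starts for Pax2 and 1 for each of the others, which gave 10 windows of 250 bases. The windows of Pou3f3 (chr1:42695518-42695767, plus strand), Pax8 (chr2:24475600-24475849, minus strand) and Irx2 (chr13:72628570-72628819, plus strand) are shown because these 3 genes stand for a middle nephron factor that was listed at 0 in 1 ureter library, a paired box factor and an Iroquois factor. None of the 3 windows overlaps an exon of the GENCODE annotation, and exons of RefSeq models were not checked. The RefSeq model of Irx2 reaches the noncoding gene Gm20554, which ends at 72628564, so the Irx2 window lies within that model. All 3 windows are written 5′ to 3′ on the strand of the gene. They end at the base before the start used, and capitals mark matches to the motifs searched.
Pou3f3: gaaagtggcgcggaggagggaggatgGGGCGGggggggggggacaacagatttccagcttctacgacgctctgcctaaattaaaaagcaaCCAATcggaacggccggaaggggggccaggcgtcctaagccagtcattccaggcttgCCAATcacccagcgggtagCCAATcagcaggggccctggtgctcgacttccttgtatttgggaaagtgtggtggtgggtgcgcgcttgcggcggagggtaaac
Pax8: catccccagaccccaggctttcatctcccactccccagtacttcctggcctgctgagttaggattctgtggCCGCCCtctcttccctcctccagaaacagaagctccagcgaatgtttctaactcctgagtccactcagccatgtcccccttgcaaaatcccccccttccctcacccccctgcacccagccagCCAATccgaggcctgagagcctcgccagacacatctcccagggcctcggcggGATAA
Irx2: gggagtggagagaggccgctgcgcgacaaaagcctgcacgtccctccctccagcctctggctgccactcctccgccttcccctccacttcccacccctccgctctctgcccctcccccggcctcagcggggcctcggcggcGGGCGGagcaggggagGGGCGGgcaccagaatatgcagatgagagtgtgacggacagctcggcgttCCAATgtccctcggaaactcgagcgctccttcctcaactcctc
The motifs were TATAAA (the TATA box), CCAAT (named by its letters), GGGCGG (the GC box) and GATAA, each searched on both strands. The printed matches do not overlap each other. The Pou3f3 window holds 3 matches to CCAAT and 1 to the GC box, the Pax8 window 1 match each to CCAAT, to the GC box and to GATAA, and the Irx2 window 1 match to CCAAT and 2 to the GC box.

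Among the 10 windows of the members, 7 held a GC box and 5 held CCAAT, against 32.7% and 33.8% of all 32851 windows of the same length. GATAA was matched in 1 of the 10 windows and in 22.6% of all windows. TATAAA was matched in 0 of the 10 and in 12.4% of all. The windows held 5 to 26 CpG dinucleotides, with a median over all windows of 6. Lhx1 had the highest number with 26, Emx2 had 24, Pou3f3 had 15, Irx3 had 13 and Pax8 had 6, while the 3 Pax2 windows held 5, 20 and 25. The share of G and C was 52.8% to 72.8% in the members' windows, against a median of 52.4%. These are descriptions of sequence and not sites shown to be bound.

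The depth of the libraries bears on all later values. Library totals were 55744703 to 66095616 counts in kidney, 36410246 in the KO ureter and 54985927 in the WT ureter library. The ribosomal transcript Rn45s took 8.06% of the counts of the KO ureter library and 0.496% to 0.632% of the others. Ahnak itself was counted in every library. In TMM-scaled CPM (the count scaled to library size) it had 139 and 131 in KO kidneys, 183 and 189 in WT kidneys, 634 in the KO ureter and 728 in the WT ureter, so each KO library lay below the WT libraries of its tissue. Ahnak was at an FPKM (fragments scaled to transcript length and to the mapped total) of 9.91 and 11.1 in KO kidneys, 13.5 and 12.03 in WT kidneys, 45.5 in the KO ureter and 40.6 in the WT ureter, so on that scale the order in ureter was the other way round. Xist, the transcript that silences an X chromosome in females, had 176348 counts in KO kidney 1 and 21 to 26 in the other kidneys, so the kidney libraries differed in this marker of sex as well as in genotype. Summed TPM (a like measure with a fixed total per library) of 11 urothelium markers was 10512 and 11062 in ureter and 254 to 279 in kidney, and 11 of 11 were higher in ureter. The 8 loop and distal tubule markers summed to 650.5 to 709 TPM in kidney and to 0.529 and 3.95 in the KO and WT ureter, where 7 and 6 of them, Umod and Slc12a1 included, were at 0. All 9 proximal tubule markers were higher in kidney, at a sum of 1423 and 1049 TPM in KO kidneys, 993 and 1466 in WT kidneys, and 11.5 and 12.3 in ureter. The labelled tissues thus differed in these lists, but not every list split by tissue. Of 11 ureteric tip and collecting duct markers 6 were called higher and 4 lower in kidney. Their sums were 1094 to 1365 TPM in kidney and 5668 and 3693 in the KO and WT ureter. Of 7 ureteric mesenchyme markers 1 was called higher and 3 lower in kidney. In bulk tissue fewer cells of a type and less RNA per cell cannot be told apart.

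Pax2 and Pax8 were the most abundant of the 9 in kidney. Pax2 FPKM was 57.6 and 52.9 in KO kidneys, 65.1 and 51.6 in WT kidneys, and 3.10 and 3.31 in the KO and WT ureter libraries. Pax8 FPKM was 54.2 and 50.3 in KO kidneys, 58.8 and 47.9 in WT kidneys, and 1.76 and 2.23 in KO and WT ureter. For both genes each kidney library lay far above each ureter library, and the ureter libraries lay close together. On the log2 scale of TMM-normalised counts, kidney exceeded ureter by 3.85 for Pax2 (SE 0.151, adjusted p = 1.35e-05) and by 4.43 for Pax8 (SE 0.148, adjusted p = 9.15e-06), which are 14.4-fold and 21.6-fold differences. These and all later adjusted p-values come from the quasi-likelihood test of edgeR unless another tool is named, with Benjamini-Hochberg adjustment over all genes tested, and a gene was called below 0.05. The ratio of Pax2 to Pax8 FPKM was 1.05 to 1.11 in the 4 kidneys, and 1.76 and 1.49 in KO and WT ureter.

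**Figure D1:**
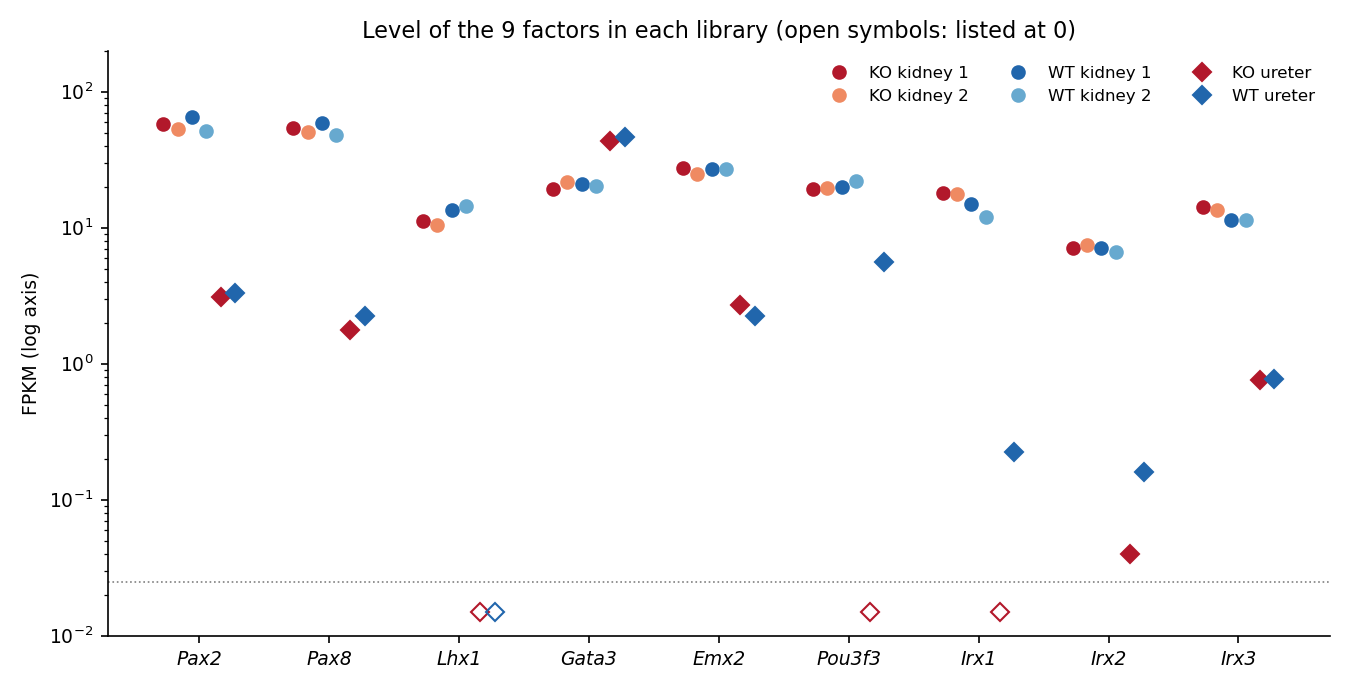
FPKM (log axis) of the 9 factors in each of the 6 libraries, with circles for kidney, diamonds for ureter, red shades for Ahnak KO, blue shades for WT, and open symbols under the dotted line for values listed at 0. Every factor but Gata3 sits higher in the 4 kidney libraries than in both ureter libraries, and Lhx1 is at 0 in both ureters, while Pou3f3 and Irx1 are at 0 in the KO ureter.

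Lhx1, a LIM homeodomain factor of the nephric duct and the early nephron, was the member with no count in ureter. It had 1794 and 1646 counts in KO kidneys, 2496 and 2301 in WT kidneys, and 0 in both ureter libraries. In FPKM this was 11.2, 10.5, 13.4 and 14.4 in kidney. Against a floor of 3 counts in each ureter library, Lhx1 was at least 277-fold higher in kidney (adjusted p = 1.57e-05). The counts were estimated by the authors, so a 0 is the entry in the table, and limits of this kind cover counting error only. Distances to neighbouring genes are between RefSeq gene models, whose ends can differ from the GENCODE ends given above. Lhx1os, a noncoding transcript that starts 126 bases from Lhx1, was also at 0 in both ureter libraries and had 610 to 924 counts in kidney. It was at least 99.9-fold higher in kidney against the same floor (adjusted p = 7.34e-05). Aatf, the next gene on the other side of Lhx1 at 4391 bases, differed between the tissues by 0.00 on the log2 scale (SE 0.149, adjusted p = 0.996).

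Gata3, a zinc finger factor of the nephric and collecting ducts, was the member with the opposite distribution. Its FPKM was 19.4 and 21.5 in KO kidneys, 20.9 and 20.2 in WT kidneys, 43.1 in the KO ureter and 46.1 in the WT ureter. The 4 kidney values lay within 1.11-fold of each other in normalised counts and both ureter values lay above all of them. Gata3 was 2.67-fold higher in ureter (log2 difference of kidney minus ureter of -1.42, SE 0.0904, adjusted p = 7.5e-05), and with library size alone in place of TMM the log2 difference was -1.13. The Gata3 gene overlaps the noncoding gene 4930412O13Rik, which had 418 counts in the KO and 2055 in the WT ureter library and 1163 to 1777 in kidney, and whose tissue difference was not called (-0.18, SE 0.340, adjusted p = 0.702). The library kit was stranded, but the use of strand in counting is not given in the sources used here, so reads of overlapping genes may be shared between them.

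Emx2, a homeodomain factor of the ureteric bud and the genital ducts, had an FPKM of 27.4 and 24.9 in KO kidneys, 27.1 and 27.0 in WT kidneys, and 2.703 and 2.26 in KO and WT ureter. It was 8.72-fold higher in kidney (log2 difference 3.12, SE 0.165, adjusted p = 3.7e-05). Emx2 was the most even of the 9 in kidney, where its highest and lowest normalised counts differed 1.10-fold. Emx2os, transcribed from the opposite strand, was also higher in kidney by 2.57 on the log2 scale (SE 0.179, adjusted p = 0.000101). It lies 55 bases from Emx2 in RefSeq and overlaps the GENCODE model of Emx2, so reads may be shared here too.

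The Iroquois factors were low in ureter. Irx1 had 2149 and 2092 counts in KO kidneys, 2067 and 1430 in WT kidneys, 0 in the KO ureter and 27 in the WT ureter (exact 95% Poisson interval 17.8 to 39.3). Irx2 had 1099 and 1117 counts in KO kidneys, 1267 and 1016 in WT kidneys, 4 in the KO ureter (interval 1.09 to 10.2) and 25 in the WT ureter (interval 16.2 to 36.9). Irx3 had 1961 and 1802 counts in KO kidneys, 1803 and 1569 in WT kidneys, and 68 and 102 in KO and WT ureter. Irx3 thus kept a level in both ureters, at 0.754 and 0.766 FPKM, while Irx1 and Irx2 were at 0.224 FPKM or less.

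All 3 Iroquois factors were higher in kidney. Irx3 was 13.3-fold higher (log2 difference 3.73, SE 0.168, adjusted p = 2.2e-05). For Irx2 the log2 difference was 5.76 (SE 0.434, adjusted p = 0.00014), and for Irx1 it was 6.63 (SE 0.784, adjusted p = 0.00094). The size for Irx1 rested on which ureter library was used. Without the KO ureter library it was 5.64 (adjusted p = 0.000113), and kidney libraries lay 44.7-fold to 67.5-fold above the WT ureter library, while the lowest kidney library was at least 233-fold above the KO ureter library. Without the WT ureter library the fitted value for Irx2 was 7.08, and without the KO ureter library it was 5.14. Irx5, a paralog, followed the same direction with 302 to 373 counts in kidney, 13 in the KO ureter and 0 in the WT ureter (log2 difference 5.08, SE 1.05, adjusted p = 0.00932). Irx4 went the other way at low counts, with 9 to 38 in kidney and 30 and 135 in KO and WT ureter (-2.95, SE 0.955, adjusted p = 0.0463). Irx6, with 0 to 14 counts in kidney and 0 in both ureters, was not called (adjusted p = 0.188).

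Pou3f3, a POU domain factor of the loop of Henle and the distal tubule, was the member for which the ureter libraries parted most. It had 3470 and 3398 counts in KO kidneys, 4122 and 3953 in WT kidneys, 970 in the WT ureter and 0 in the KO ureter. In FPKM these were 19.4, 19.4, 19.9, 22.2, 5.62 and 0. The kidney libraries lay 3.03-fold to 3.44-fold above the WT ureter library and at least 568-fold above the KO ureter library. With both ureter libraries in the fit the log2 difference was 3.29 with an SE of 1.31 and was not called (adjusted p = 0.0857), although kidney and ureter values did not overlap. It was called in 7 of 18 alternatives. Without the KO ureter library it was 1.70 with an adjusted p of 0.000902.

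**Figure D2:**
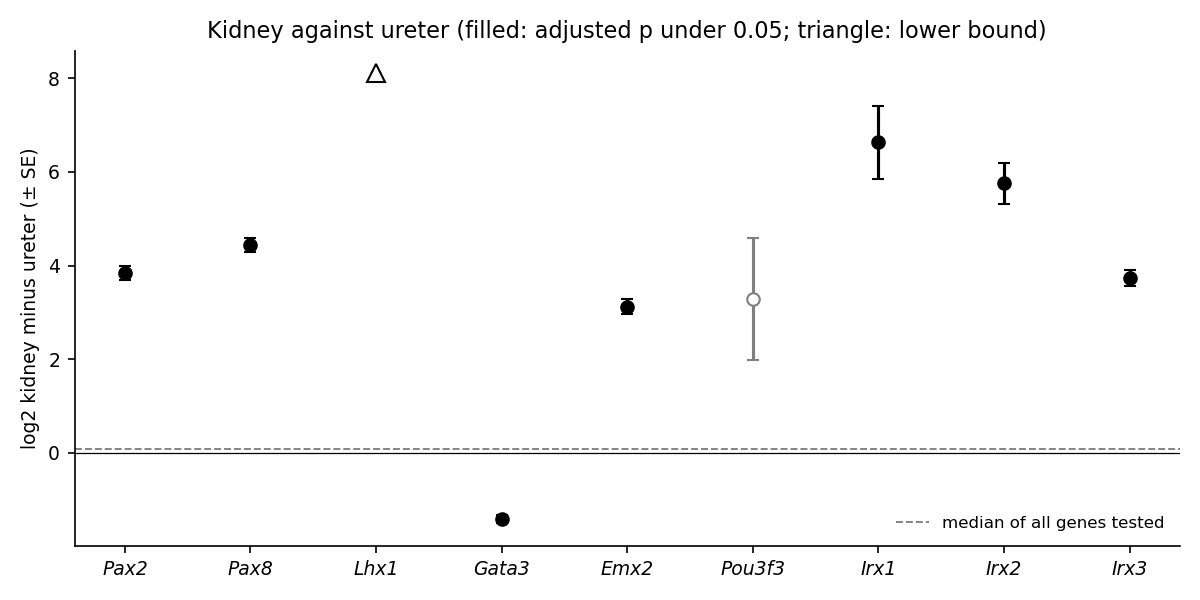
Log2 difference of kidney minus ureter with its SE for the 9 factors (4 kidney and 2 ureter libraries), with filled points for an adjusted p under 0.05, an open point for Pou3f3 and a triangle at the lower bound for Lhx1. Gata3 lies below 0 at -1.42 and the others lie at 3.12 or above, with the median of all genes at 0.08.

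Counted over the family, 7 of 9 members were called higher in kidney, against 22.3% of 17557 genes tested, and 1 of 9 was called lower, against 20.3%. The median log2 difference of the members was 3.85, with Lhx1 at its bound, and that of all genes was 0.08. For all 9 members the kidney and ureter values did not overlap. The share of all genes for which this held was not computed, so this count has no background. With library size alone the median over all genes moved to 0.37 and the share of calls that were higher in kidney from 52.3% to 72.0%, and all 9 members kept their direction. The makeup of the set differed as well. Pax2 and Pax8 together made 46.7% to 51.9% of the summed FPKM of the 9 in kidney and 9.45% and 9.14% in KO and WT ureter. Gata3 made 8.49% to 9.87% of that sum in kidney, 83.8% in the KO ureter and 76.0% in the WT ureter. The ratio of Gata3 to Pax2 was 0.321 to 0.407 in kidney and 13.9 in both ureter libraries.

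**Figure D3:**
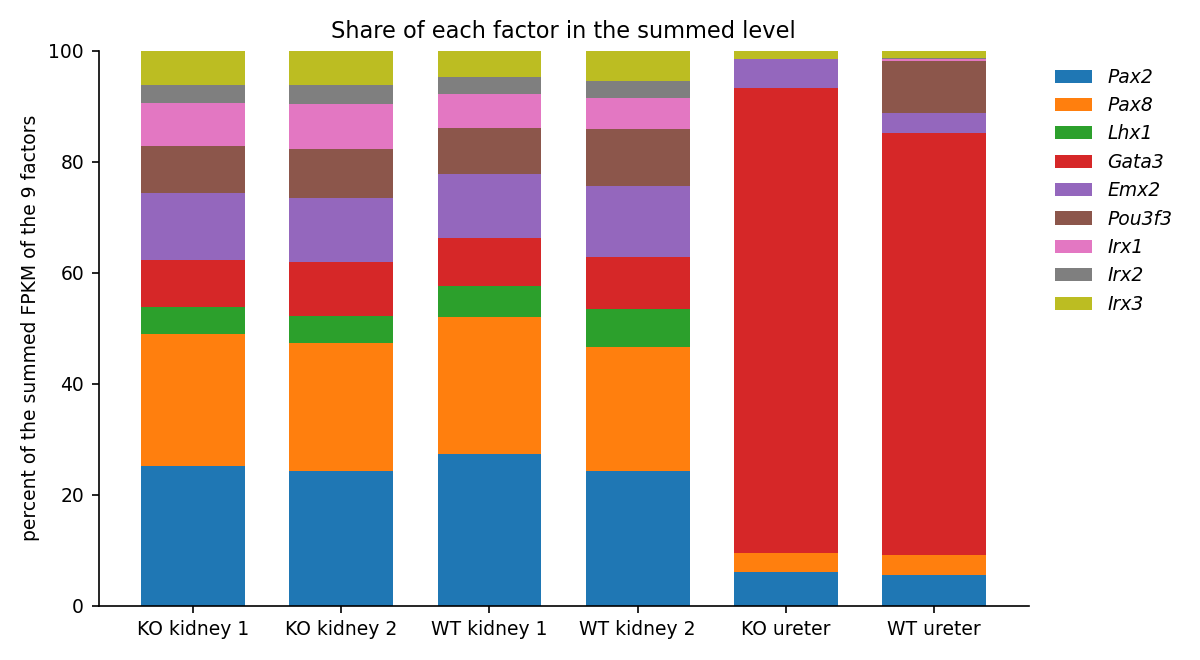
Percent of the summed FPKM of the 9 factors taken by each of them, as stacked bars for the 6 libraries. Pax2 and Pax8 together fill the lowest 46.7% to 51.9% of each kidney bar, and Gata3 fills 83.8% of the KO and 76.0% of the WT ureter bar.

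By FPKM, which is per length of transcript, the order in kidney was Pax2, Pax8, Emx2, Gata3, Pou3f3, Irx1, Irx3, Lhx1 and Irx2. The ranges over the 4 kidney libraries overlapped between Pax2 and Pax8, between Gata3 and Pou3f3, between Irx1 and Irx3, and between Irx3 and Lhx1, while the other neighbours did not overlap. Within a library, Pax2 was above Pax8 and Irx1 above Irx3 in 4 of 4 kidneys, whereas Gata3 was above Pou3f3, and Irx3 above Lhx1, in 2 of 4. Mean kidney FPKM ran from 56.8 ± 6.08 (SD, n = 4) for Pax2 to 7.05 ± 0.332 for Irx2. In ureter Gata3 led in both libraries. Pou3f3 came second at 5.62 FPKM in the WT ureter and was at 0 in the KO ureter, where Pax2 came second at 3.10.

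None of the 9 factors was called between Ahnak KO and WT kidneys. By edgeR 0 of 9 passed the adjusted threshold, against 0.0121% of 16481 genes, and DESeq2 and limma also called 0 of 9. At an unadjusted p under 0.05 there were 2 of 9, against 1.38% of all genes. The genotypes did not overlap in normalised counts for 5 of 9 members, against 26.1% of all genes. In 3 of these, Irx1, Irx2 and Irx3, both KO kidneys were above both WT kidneys, and in Lhx1 and Pou3f3 both were below.

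Irx1 had the largest difference of the 9. Its FPKM was 17.9 and 17.8 in KO kidneys and 14.8 and 11.9 in WT kidneys, a log2 difference of KO minus WT of 0.43 (SE 0.151, unadjusted p = 0.0279 from the quasi-likelihood test of edgeR, adjusted p = 0.9999). WT kidney 2 was the lowest library, and without it the difference was 0.29, while without WT kidney 1 it was 0.59. Irx3 was at 14.3 and 13.4 FPKM in KO and 11.4 and 11.5 FPKM in WT kidneys (0.30, SE 0.129, edgeR adjusted p = 0.9999). Lhx1 had a log2 difference of -0.34 (SE 0.128, unadjusted p = 0.0364 by edgeR, adjusted p = 0.9999), and its 2 KO and 2 WT values lay close together within a genotype, at a mean FPKM of 10.8 ± 0.487 (SD, n = 2) and 13.9 ± 0.669 (SD, n = 2).

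The remaining members were near 0 on this scale. The log2 difference of KO minus WT kidney was -0.10 for Pou3f3 (SE 0.123), 0.10 for Irx2 (SE 0.151), -0.06 for Pax2 (SE 0.134), -0.03 for Emx2 (SE 0.117), 0.01 for Gata3 (SE 0.121) and -0.01 for Pax8 (SE 0.126). Pax2 and Pax8 were highest in WT kidney 1 and lowest in WT kidney 2, so their spread lay within a genotype. Proximal tubule markers, which were high in KO kidney 1 and WT kidney 2, split the libraries in another way than genotype, and their part in these values was not tested. Nor was that of sex, of which only the marker Xist was seen to set KO kidney 1 apart from the other kidneys.

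**Figure D4:**
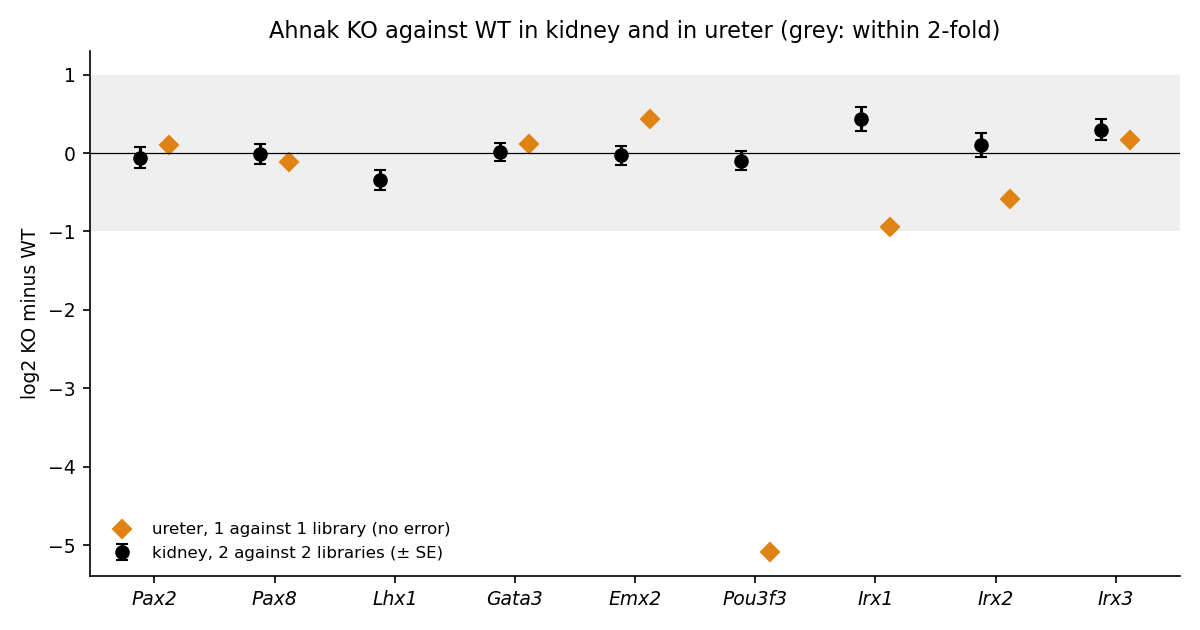
Log2 difference of Ahnak KO minus WT for each factor, with circles and SE for kidney (2 against 2 libraries) and diamonds for the ratio in ureter (1 against 1 library, CPM + 0.5, no error), and grey for changes within 2-fold. Kidney values lie between -0.34 and 0.43, and Pou3f3 in ureter lies at -5.08, outside the grey band.

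In ureter each genotype had 1 library, so the ratio of KO to WT has no replicate check. It was formed on CPM + 0.5 for genes that reached 10 counts in either library, which left 8 members. Pou3f3 was past 2-fold, with 970 counts in the WT and 0 in the KO ureter, and this was at least 187-fold lower in the KO library against a floor of 3 counts. It was 1 of 8 members lower past 2-fold, against 5.75% of 16117 genes, and 0 of 8 were higher past 2-fold, against 4.5%. Irx1, at 27 counts in WT and 0 in KO, was at least 5.19-fold lower, although the pseudocount drew its ratio to -0.94 on the log2 scale. Irx2, at 25 counts in WT and 4 in KO, had a log2 ratio of -0.58, and of -1.27 with CPM + 0.1. The log2 ratio was -0.11 for Pax8, 0.11 for Pax2, 0.11 for Gata3, 0.16 for Irx3 and 0.44 for Emx2. With library size alone the ratios of Pax2 and Gata3 turned to -0.08, and with FPKM + 0.1 that of Irx3 turned to -0.02, so no direction is given for these 3.

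The difference of the genotype effect between the tissues was tested in 1 fit with 4 group means, in which each lone ureter library was assumed to vary like the kidney libraries. Pou3f3 was called (adjusted p = 0.0044 by edgeR), as were 0.108% of all genes, and it was 1 of the 8 members with ureter counts. The test rests on the same 970 and 0 counts and on the spread between kidney libraries, so it does not show a difference between genotypes in ureter. It was called in 7 of 8 alternatives, and limma on log2(FPKM + 1) gave an adjusted p of 0.0772. Irx1 had an adjusted p of 0.0714 by edgeR, which was 0.0401 with DESeq2, 0.0365 without KO kidney 1 and 0.0272 without KO kidney 2, within a range of 0.0272 to 0.354 over its 8 alternatives. Irx2 had an adjusted p of 0.221 by edgeR, and the other 5 had 0.421 or more. The KO ureter library also held fewer counts, more Rn45s and a lower striated muscle marker sum (203 against 542 TPM over 8 markers, 0 of them at 0 in either library), and the part of these in the result for Pou3f3 was not tested.

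The region around Pou3f3 did not show 1 pattern. Genes within 20000 bases of each member were looked at after the values had been seen, and 3 of them lie near Pou3f3. Pantr1, a noncoding gene that ends 943 bases before Pou3f3, had 568 and 640 counts in KO kidneys and 683 and 611 in WT kidneys. In ureter it had 59 counts in the KO and 0 in the WT library, at least 34.1-fold the other way than Pou3f3, and its genotype difference between tissues was called as well (adjusted p = 0.0335 by edgeR). The noncoding gene 2900092D14Rik starts 126 bases after the RefSeq end of Pou3f3, at 42700210, and lies inside the longer GENCODE model of Pou3f3, which ends at 42703176. It had 92 counts in the KO and 207 in the WT ureter, a log2 ratio of -0.32. Pantr2, at 6851 bases, had 12 and 26.

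Entries at 0 beside high counts were rare in ureter. Of the 10899 genes that had 500 or more counts in the WT ureter, 4 were listed at 0 in the KO ureter, Pou3f3 among them, and 1 of 9279 was listed so in the other direction. Setdb2 was another of the 4, with 686 counts in the WT ureter, 0 in the KO ureter and 314 to 711 in kidney. Klhdc7a, named after its values were seen, showed such an entry among replicates, with 2861 counts in WT kidney 1, 0 in the other kidneys, 3092 in the KO ureter and 0 in the WT ureter.

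**Figure D5:**
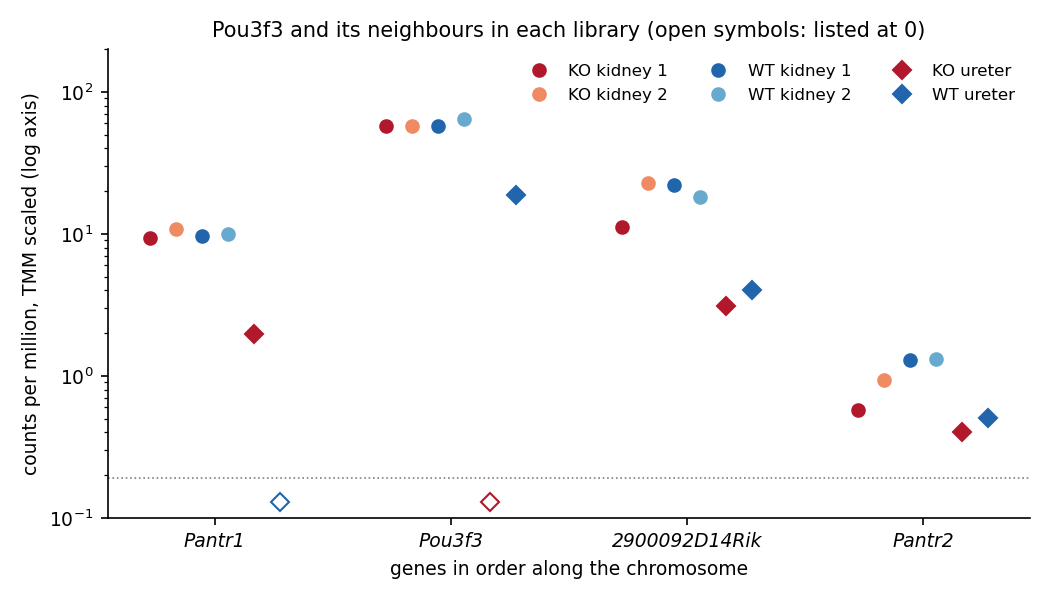
TMM-scaled CPM (log axis) of Pou3f3 and its 3 neighbours in the 6 libraries, in order along the chromosome, with circles for kidney, diamonds for ureter, red shades for Ahnak KO and blue shades for WT, and open symbols under the dotted line for 0. Pou3f3 is at 0 in the KO ureter and Pantr1 in the WT ureter, while 2900092D14Rik and Pantr2 have counts in both.

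The genes whose pattern over the 6 libraries was most like that of each member were found among 12441 genes with a mean of at least 5 CPM, by the root mean square difference of centred log2(CPM + 0.5). The nearest to Pax2 was Tchh (0.0237), with 1811 to 2667 counts in kidney and 63 and 94 in KO and WT ureter. Gata3 was followed nearest by Ssc5d (0.0322), Emx2 by Zcchc18 (0.0721), Irx3 by Plppr1 (0.0603) and Pax8 by Slco1a6 (0.092). Slco1a6 had 591 to 734 counts in kidney and 0 in both ureters, where Pax8 had 171 and 323. Plppr1 had 10 and 9 counts in KO and WT ureter. Its log2 difference of kidney minus ureter was 4.94, against 3.73 for Irx3. The nearness of Slco1a6 and of Plppr1 thus depends on the pseudocount. Lhx1 was nearest to Ros1 (0.151), which like it had 0 counts in both ureters, Irx2 to the receptor gene Fgfr4 (0.128), and Irx1 to Spp1 (0.241), the gene of osteopontin. Second places were taken by Tfcp2l1 for both Pax2 (0.133) and Irx3 (0.107), by Rassf2 for Gata3, Ache for Emx2, Rragd for Pax8, Bsnd for Lhx1, Me3 for Irx2 and Plscr2 for Irx1.

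No gene came that near to Pou3f3. Its nearest was Spry1 (0.513), an inhibitor of growth factor signalling known to restrain Ret in the ureteric bud. Spry1 had 5792 and 6623 counts in KO kidneys, 7366 and 5723 in WT kidneys, 50 in the KO ureter and 1894 in the WT ureter. Its genotype difference between tissues was called (adjusted p = 0.0131 by edgeR), and the log2 ratio of KO to WT in ureter was -4.05. The second was Mapk15 (0.827), with 1243 to 1612 counts in kidney, 0 in the KO and 113 in the WT ureter.

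Few paralogs of the members were expressed. Of 26 paralogs, 6 reached an FPKM of 1 in a library. Of 13 tested 2 were called higher and 7 lower in kidney, against 22.3% and 20.3% of all genes tested. Gata2, Gata5 and Gata6 shared the direction of Gata3, with log2 differences of kidney minus ureter of -2.75 (SE 0.158), -2.35 (SE 0.290) and -2.08 (SE 0.291). Gata2 was the highest of these, at 70.4 and 94.5 FPKM in KO and WT ureter and 11.9 to 16.8 in kidney. Lhx6 was lower in kidney (-1.32, SE 0.284), in the opposite direction to Lhx1. Emx1 had 625 to 943 counts in kidney and 0 in both ureters, as Lhx1 had.

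Other regulators of kidney and ureter development mostly shared the kidney side of the members. Of 48 regulators tested, 31 were called higher and 8 lower in kidney, against 22.3% and 20.3% of all genes tested. Their median log2 difference was 1.75, against 0.08 for all genes. Sim1, Foxi1 (a factor of intercalated cells) and Lmx1b (a factor of podocytes) had 0 counts in both ureters, and 2832 to 3386, 748 to 1067 and 156 to 219 counts in kidney. On the ureter side, Tbx18, which marks the mesenchyme around the ureter, had a log2 difference of -5.29 (SE 0.134, adjusted p = 4.09e-06), with 182 to 222 counts in kidney and 3265 and 7270 in KO and WT ureter. Hopx (-3.50, SE 0.163) and Osr1 (-2.24, SE 0.146), an early factor of the intermediate mesoderm, were the next. None of the 48 was called between KO and WT kidneys by edgeR, and 0 had an unadjusted p under 0.05. Over all genes these shares were 0.0121% and 1.38%.

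Genes linked to the members in the lineage, as segment products or signals, were divided in the same way. Of 30 linked genes, 21 were called higher and 3 lower in kidney, against 22.3% and 20.3% of all genes tested. Their median log2 difference was 2.86. Slc12a1, the salt carrier of the thick ascending limb, had 16407 to 22823 counts in kidney, Umod, the gene of uromodulin, 6158 to 10101, and Tmem52b 5550 to 6478, and all 3 had 0 in both ureters. Tspan8 (-2.06, SE 0.0982), Sfrp2 (-1.82, SE 0.170) and Wnt7b (-1.40, SE 0.165), a signal of the collecting duct, were higher in ureter. Of the 30, 0 were called between KO and WT kidneys by edgeR and 1, the potassium channel gene Kcnj1, had an unadjusted p under 0.05. Over all genes these shares were 0.0121% and 1.38%. The members and these lists were picked with earlier results of these libraries known, so their counts are descriptions.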

How the data were processed

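Bulk RNA sequencing libraries of mouse kidney (2 Ahnak KO, 2 WT) and ureter (1 KO, 1 WT) were prepared with the TruSeq Stranded mRNA kit. The authors deposited 1 table with an estimated count, given as a whole number, for each of 24532 genes. FPKM and TPM, normalised by the authors for length and depth, stand beside it in the deposited table. The methods name Cutadapt, STAR, Cufflinks and GRCm39, while the submitters' processing notes name Trimmomatic 0.38, HISAT2 2.1.0, StringTie 1.3.4b and mm10, and which of them made the table is not given in the sources used here.

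Estimated counts were tested with edgeR 4.0.16 in R 4.3.3 (TMM, filterByExpr, quasi-likelihood test, Benjamini-Hochberg). The design had been written for read counts. Kidney against ureter used 6 libraries with genotype as a term (3 residual degrees of freedom), and KO against WT kidney used 4 (2 degrees). The standard error is the absolute log2 difference divided by the square root of F. FPKM served for levels and for limma 3.58.1, TPM for marker sums, and DESeq2 1.42.0 as an alternative. Per the methods the replicates were biological, 2 in number, with no tissue given, and the labels name no animals. Column names share a suffix between kidney 2 and the ureter library of each genotype, so these may come from the same animals, which the labels do not state. A floor of 3 counts was 0.0421 to 0.101 CPM.

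The members and lists were chosen with earlier results of these data known. Named genes were the members, paralogs with an FPKM of at least 1 in a library, the 3 called genes with the largest difference in each direction from the lists of other regulators and linked genes with a mean FPKM of at least 1, and for each member the 2 genes nearest in pattern. Kcnj1, Setdb2, Klhdc7a, Irx4, Irx6 and the neighbours of the members were named after their values were seen. Alternatives covered scaling, filters, tests, pseudocounts, terms, single genotypes and leaving out each library.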

Additional observations from a re-analysis of the deposited data

Results flagged for a closer look

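Pou3f3 passed the test of a genotype difference that differs between the tissues, which rests on 1 ureter library a genotype. In kidney it had 3470 and 3398 counts in KO and 4122 and 3953 in WT libraries, and in ureter 0 in the KO and 970 in the WT library. The test assumed that each ureter library varies like the kidney libraries, and gave an adjusted p of 0.0044 by edgeR, and 0.0772 with limma on log2(FPKM + 1). It does not show a difference between genotypes in ureter. Klhdc7a, named after its values were seen, had 2861 counts in WT kidney 1 and 0 in the other kidneys. How often such entries occurred among kidney replicates was not counted, and the cause of the 0 for Pou3f3 was not tested. Outliers within groups were not examined, because no group had 4 libraries.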

How the results depend on the processing

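In kidney against ureter 8 of 9 members were called in the design as planned, and all kept their direction in the alternatives run. With kidney replicate 2 and the ureter libraries alone, whose column names share a suffix within each genotype, an alternative added after the data were seen, 4831 genes were called in place of 7474. Between KO and WT kidneys 0 members were called under every alternative run. The count over all genes was 2 by edgeR, 44 by DESeq2, 0 by limma with FPKM + 1 and 5 by limma with FPKM + 0.1, and 3 to 87 when 1 library was left out, with 3 without WT kidney 2 and 87 without KO kidney 2. The labels give both genotypes replicate 1 and 2, but the same numbers did not deviate together (correlation -0.19 over 16481 genes). With the replicate block 0 genes and 0 members were called, and with a crossed replicate block, added after the data were seen, 1 gene. Small kidney differences turned: Gata3 was -0.0075 and -0.0079 with the limma fits, and leaving out 1 library gave -0.0684 to 0.0865 for Gata3, -0.21 to 0.11 for Pax2, -0.15 to 0.14 for Pax8 and -0.10 to 0.0336 for Emx2. The difference of the genotype effect between the tissues was called for 1 member and 19 genes by edgeR. It was called for 2 members and 479 genes by DESeq2, and for 0 and 0 by limma. When 1 kidney library was left out, it was called for 1 to 2 members and 4 to 270 genes. The genes were 4 without WT kidney 1, 5 without WT kidney 2, 153 without KO kidney 1 and 270 without KO kidney 2. In this difference of the genotype effect, Pax2 was -0.0042 and Gata3 -0.087 by limma, and Pax8 ran from -0.26 to 0.0270 without 1 library. In ureter 1 member and 1651 genes were past 2-fold, against 3 and 2771 with log2(CPM + 0.1) and 2 and 2654 with log2(FPKM + 0.1). The causes were not tested. With 1 ureter library a genotype, values at or under 3 counts limit any ratio there.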

Other observations

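Nephron progenitor markers gave a value in ureter that the members' text does not hold. The 6 markers summed to 403 to 419 TPM in the kidney libraries and to 31.5 and 28.0 TPM in the KO and WT ureter libraries. Cited1 had 153 counts in the KO and 24 in the WT ureter library, while Six2 had 0 and 55. All 6 were called higher in kidney by edgeR, against 22.3% of all genes tested. Cadherin 16, a kidney epithelial adhesion protein coded by Cdh16, had 31926 to 42311 counts in kidney, 9 in the KO ureter and 126 in the WT ureter, and its genotype difference between tissues had an adjusted p of 0.0317 by edgeR. Summed TPM of 7 blood cell markers ran from 114 in WT kidney 2 to 2780 in KO kidney 1. WT kidney 1 and KO kidney 2 had 1448 and 1454 TPM, and KO and WT ureter 1597 and 2647 TPM. The globin gene Hba-a1 had 20405 counts in KO kidney 1 and 460 to 729 in the other kidneys. Hbb-bs, also a globin gene, had 664 in WT kidney 2 and 24316 to 30380 in the other kidneys. Ptprc spread less in kidney, at 550 to 1202 counts, as did S100a8 (200 to 501) and S100a9 (396 to 817). Cited1, Six2, Cdh16 and these blood cell genes were named after their values were seen.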
